A study of Mus musculus with 2 samples.

Results

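Intron sequence just upstream of internal exons, on the 5′ side of the 3′ splice site, was examined for Mbnl2 HITS-CLIP tags in mouse quadriceps muscle. A window was the intron bases within 250 nt of the 3′ splice site of an internal exon of a protein-coding gene (GENCODE vM1, mm9), up to the midpoint of the gap to the nearest exon on that strand. Of 174765 such splice sites, 156759 had at least 1 intron base left, 33.399 Mb in all. The exon was a cassette exon, one that another coding transcript of the gene skips, at 12201 windows (7.78%). It was constitutive, present in every coding transcript that spans it, at 137758 windows. The remaining 6800 exons differed in another way, such as the use of a second splice site. A tag belonged to a window when its midpoint lay there on the strand of the gene. The 2 groups were WT and Mbnl1-/- mice (hereafter Mbnl1 KO), 3 mice each, aged 15 to 16 weeks, with the strain given as C57BL/6 in the labels, whereas the study's methods describe a mixed background for its crosses of Mbnl1 and Mbnl2 heterozygotes. The study's methods give WT as Mbnl1+/+, and no treatment is given for it. The deposited table of each genotype merges its 3 mice, so the spread between mice cannot be given and no test between genotypes was made. Intervals are exact 95% intervals that cover counting error only and treat tags as independent, although tags pile up at single positions. They compare these libraries, not the genotypes.

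In HITS-CLIP, ultraviolet light fixes a protein to its bound RNA in the tissue, RNase trims the RNA, an antibody pulls the protein down, and the short fragments left on it, called tags, are sequenced. Muscleblind-like proteins such as Mbnl2 are zinc finger RNA-binding proteins that control which alternative exons are kept during the maturation of muscle and brain. They recognise YGCY, where Y is C or T, in pre-mRNA. Muscleblind binding in the upstream intron is commonly associated with skipping of the exon, and binding in the downstream intron with its inclusion. The upstream intron also holds the branch point and the polypyrimidine tract, by which the splicing machinery recognises the 3′ splice site. Mbnl1 KO muscle lacks the main muscleblind-like protein of adult muscle, and still carries its paralogue Mbnl2. The study reports that the level of Mbnl2 protein is raised there.

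On assembled chromosomes, WT had 188766 tags and Mbnl1 KO had 392681 once tags of at least 70% a single base were left out, 44.0% of the WT and 17.0% of the Mbnl1 KO tags. The WT and Mbnl1 KO tables came from 5176203 and 50329234 reads. In the upstream windows 83.3% of WT tags and 58.3% of Mbnl1 KO tags were under 25 nt, and 63.6% and 46.3% rested on 1 read. Tags on the strand opposite to the gene served as the background, and transcripts that overlap in antisense were not removed from it. The 10 skeletal muscle fibre markers carried 992 WT and 3602 Mbnl1 KO tags, none of them at 0. The 3 markers of each other cell type carried 3 and 3 tags for heart, 1 and 18 for adipocytes, 25 and 86 for endothelium, 10 and 15 for leukocytes, 166 and 675 for fibroblasts and 28 and 51 for neurons. The targeted gene could not check the labels. The allele is named for exon 3 in the study's methods, the coordinates of its deletion were not at hand, and exons 2 and 3 of Mbnl1 in the longest coding transcript held 5 and 0 WT tags and 2 and 4 Mbnl1 KO tags.

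The following tag clusters are the stretches with the most tags in the windows on which the results turn, shown so that the YGCY words can be seen in place. Each is mm9 sequence under overlapping tags of both genotypes pooled, read 5′ to 3′ along the RNA, with YGCY in capitals, that is the word TGCT, the word TGCC, the word CGCT and the word CGCC. The Myo7a and Ank1 stretches are shown because they hold no such word. The middle 22 bases of each stretch occur once in the genome on either strand, except for Slc8a3, where they are a CTG repeat with 251 exact copies.
Tnnt3, 39-nt exon, chr7:149693607-149693647, plus strand: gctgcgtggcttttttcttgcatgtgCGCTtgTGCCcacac
Tnnt3, 12-nt exon, chr7:149691070-149691103, plus strand: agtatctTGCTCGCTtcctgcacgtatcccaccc
Ttn, 69-nt exon, chr2:76659317-76659366, minus strand: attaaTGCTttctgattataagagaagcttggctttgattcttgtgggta
Ttn, 84-nt exon, chr2:76696098-76696135, minus strand: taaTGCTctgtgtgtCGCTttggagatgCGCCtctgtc
Ttn, 78-nt exon, chr2:76681102-76681162, minus strand: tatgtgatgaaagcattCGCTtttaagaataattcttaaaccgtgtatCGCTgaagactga
Myom1, 294-nt exon, chr17:71431421-71431459, plus strand: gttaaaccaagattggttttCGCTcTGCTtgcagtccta
Atp2a1, 103-nt exon, chr7:133596693-133596743, minus strand: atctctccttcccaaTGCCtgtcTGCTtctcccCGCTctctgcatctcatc
Slc8a3, 18-nt exon, chr12:82310634-82310687, minus strand: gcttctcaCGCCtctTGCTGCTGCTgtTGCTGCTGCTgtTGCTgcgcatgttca
Mbnl2, 95-nt exon, chr14:120803697-120803730, plus strand: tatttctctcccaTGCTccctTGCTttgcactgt
Mbnl1, 95-nt exon, chr3:60425954-60425979, plus strand: acatggcttctTGCTatgataaatac
Clcn1, 79-nt exon, chr6:42243325-42243355, plus strand: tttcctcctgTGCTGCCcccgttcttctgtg
Csda, 207-nt exon, chr6:131326428-131326461, minus strand: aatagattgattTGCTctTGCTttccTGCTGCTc
Myo7a, 136-nt exon, chr7:105240429-105240451, minus strand: gggaggacgtgggtaaggaggtc
Ank1, 155-nt exon, chr8:24224993-24225015, plus strand: cccatgatcctctgggagaatga

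Upstream windows held few of the tags. They contained 1738 WT tags (0.921% of the table) and 4152 Mbnl1 KO tags (1.06%), against 1053 and 1374 on the opposite strand. Windows before cassette exons stood out from those before constitutive exons in both genotypes. In WT, cassette windows held 219 tags, 0.446 per kb when scaled to 1000000 tags of the table (scaled tags per kb), and constitutive windows 1440 tags, 0.260 scaled tags per kb. In Mbnl1 KO, cassette windows held 787 tags, 0.771 scaled tags per kb, and constitutive windows 3147 tags, 0.273 scaled tags per kb. The density of tags was thus 1.72 times (1.48 to 1.98) higher before cassette than before constitutive exons in WT, and 2.83 times (2.61 to 3.06) in Mbnl1 KO. On the opposite strand the same ratios were 1.04 (0.824 to 1.30) and 0.991 (0.805 to 1.21), both with intervals that include 1. Deep introns, farther than 250 nt from any exon, had 0.241 and 0.260 scaled tags per kb. Constitutive windows lay within 1.08 times (1.02 to 1.14) and 1.05 times (1.01 to 1.09) of that level in WT and Mbnl1 KO, cassette windows at 1.85 and 2.97 times.

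**Figure D1:**
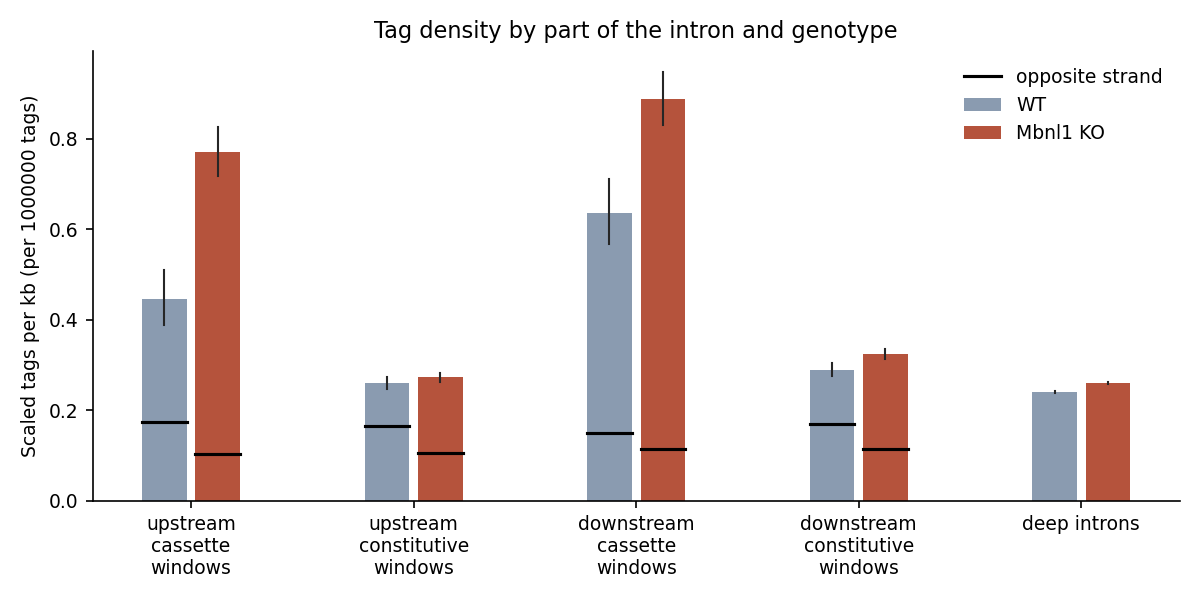
Bars give Mbnl2 tags per kb of sequence, scaled to 1000000 tags of the table, in WT and Mbnl1 KO for intron windows upstream and downstream of cassette and constitutive exons and for deep introns, with exact 95% Poisson intervals (counting error only) as lines and the opposite strand as horizontal marks (not counted for deep introns). Upstream cassette windows stand at 0.446 in WT and 0.771 in Mbnl1 KO, while upstream constitutive windows are at 0.260 and 0.273, near deep introns.

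So that windows of the same transcript were set against each other, cassette and constitutive windows were also compared inside each of the 4978 genes that have both. The ratio was 1.58 (1.33 to 1.89) in WT and 2.47 (2.24 to 2.72) in Mbnl1 KO (Mantel-Haenszel ratio). It was above 1 in both genotypes under each setting for which it was computed. Ttn, the sarcomere's giant elastic protein with 154 cassette windows, gave 9.13% of the WT and 14.1% of the Mbnl1 KO cassette tags. Without it the ratio of densities was 1.58 (1.35 to 1.83) in WT and 2.47 (2.27 to 2.68) in Mbnl1 KO. The class difference was larger among longer tags. With tags of at least 25 nt the ratio was 3.26 (2.42 to 4.34) in WT and 3.96 (3.54 to 4.43) in Mbnl1 KO.

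**Figure D2:**
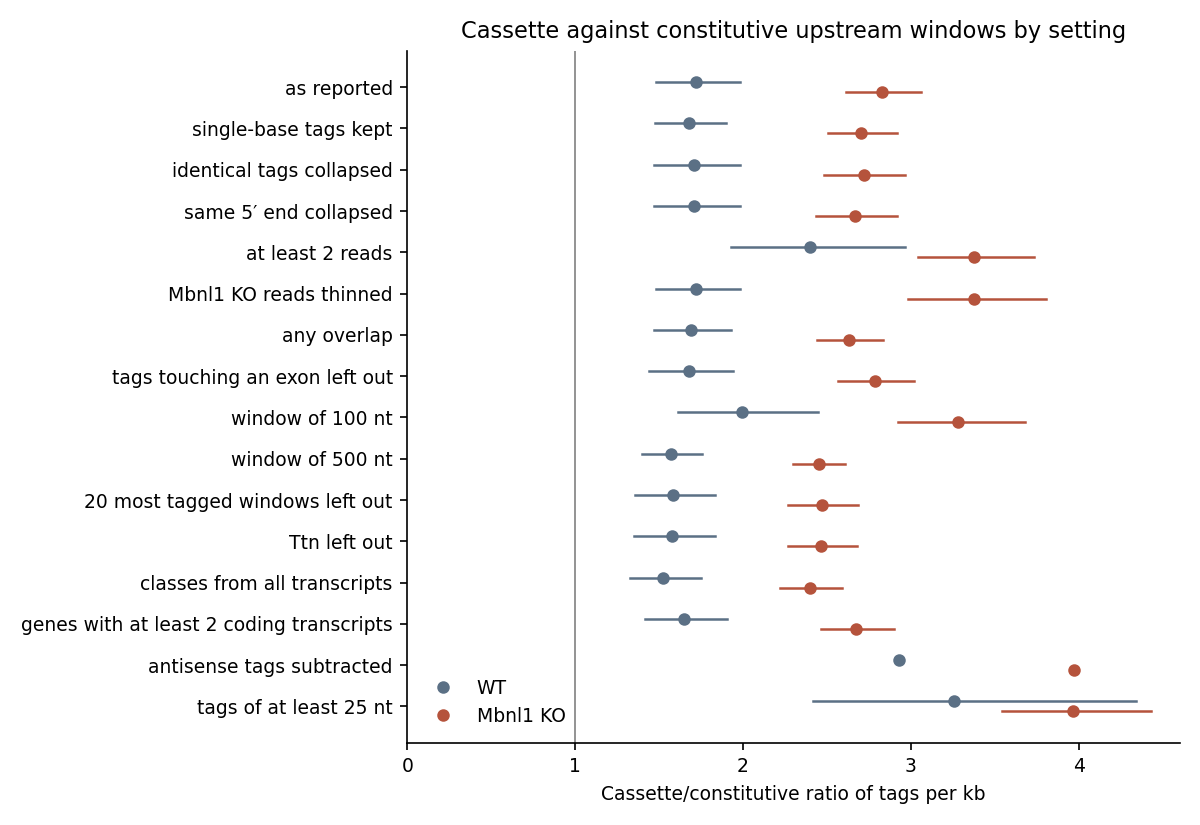
Each row is 1 way of processing the tags or windows, and the points are the cassette/constitutive ratio of tags per kb in upstream windows for WT and Mbnl1 KO, with 95% intervals (none where opposite-strand tags were subtracted). All points lie to the right of 1, and the WT and Mbnl1 KO points draw closest in relation to their intervals for tags of at least 25 nt, at 3.26 and 3.96.

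The Mbnl1 KO/WT ratio of scaled tags was 1.15 (1.09 to 1.22) over all upstream windows. It was 1.73 (1.49 to 2.02) before cassette exons and 1.05 (0.987 to 1.12) before constitutive exons. Each table is scaled to its own tags, so these ratios compare shares of tags and not amounts of binding. The other exons had 79 tags in WT and 218 in Mbnl1 KO, with a ratio of 1.33 (1.02 to 1.74). The opposite strand of the upstream windows had a ratio of 0.627 (0.578 to 0.680), so the background was not equal in the 2 tables. The cassette ratio over the constitutive ratio was 1.64 (1.40 to 1.93). This quotient was 1.36 after opposite-strand tags were subtracted and 1.41 (1.11 to 1.77) with tags of at least 2 reads. Restricted to tags of 25 nt or longer, it was 1.22 (0.898 to 1.65), an interval that includes 1, and the cassette ratio itself was 1.25 (0.956 to 1.66). Tag length moved with genotype, and its part in the larger cassette ratio was otherwise not tested. Tags over whole marker genes had scaled ratios of 1.75 (1.63 to 1.87) for skeletal muscle fibre, 1.95 (1.65 to 2.33) for fibroblasts, 1.65 (1.05 to 2.69) for endothelium and 8.65 (1.37 to 360) for adipocytes, all with intervals that overlap that of the cassette ratio. The endothelial markers were not alike, with 13 and 55 tags for Cdh5, 0 and 21 for Tek and 12 and 10 for Pecam1. Neuron, leukocyte and heart markers had 0.876 (0.542 to 1.44), 0.721 (0.303 to 1.79) and 0.481 (0.0644 to 3.59). The part of these differences in the cassette ratio was not tested. RNA levels were not measured in these tables, and in whole muscle more pre-mRNA per cell and more cells of a type cannot be told apart.

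Downstream windows, built in the same way on the 3′ side of the exon, held more tags than upstream windows. The upstream/downstream ratio of densities was 0.856 in WT and 0.853 in Mbnl1 KO. Among cassette exons it was 0.702 (0.588 to 0.837) in WT and 0.868 (0.788 to 0.956) in Mbnl1 KO. The Mbnl1 KO/WT ratio at downstream cassette windows was 1.40 (1.23 to 1.59), and at internal exons 1.80 (1.74 to 1.86). The upstream cassette windows were thus between these, and their interval overlapped both.

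Tags before cassette exons were not spread evenly over the 250 nt. In Mbnl1 KO the density was 0.674 scaled tags per kb at 1 to 50 nt from the splice site, 1.06 at 51 to 100 nt, 0.983 at 101 to 150 nt and 0.551 at 151 to 250 nt. The highest zones were therefore those between 51 and 150 nt. WT had 0.388, 0.627, 0.384 and 0.412 in the same zones, highest at 51 to 100 nt, from 65 tags in 43 genes. Without Ttn the Mbnl1 KO values were 0.609, 0.837, 0.824 and 0.521, so the order of the zones was kept. Constitutive windows also had fewer tags next to the splice site, with 0.223 at 1 to 50 nt, 0.303 at 51 to 100 nt and 0.282 at 101 to 250 nt in Mbnl1 KO, and 0.216, 0.292 and 0.266 in WT. The intervals of the first pair of zones do not overlap in either genotype before constitutive exons, and the cassette intervals do not overlap in Mbnl1 KO but do in WT. Before constitutive exons in WT, 278 tags at 1 to 50 nt stood beside 267 on the opposite strand, and 340 at 51 to 100 nt beside 181. In Mbnl1 KO these were 598 beside 251 and 733 beside 257. The single-base tags left out of the upstream windows, 602 in WT and 497 in Mbnl1 KO, were not placed by zone. The cassette/constitutive ratio was 3.02, 3.49 and 2.49 at 1 to 50, 51 to 100 and 101 to 250 nt in Mbnl1 KO, and 1.94 beyond the window, at 251 to 500 nt. In WT these ratios were 1.80, 2.15, 1.51 and 1.38. Just inside the limit, at 226 to 250 nt, cassette windows had 0.494 WT and 0.576 Mbnl1 KO scaled tags per kb, and just outside, at 251 to 275 nt, 0.434 and 0.464. The median distance of a tag from the splice site was 101 nt in WT and 103 nt in Mbnl1 KO before cassette exons, and 116 and 120 nt before constitutive exons.

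**Figure D3:**
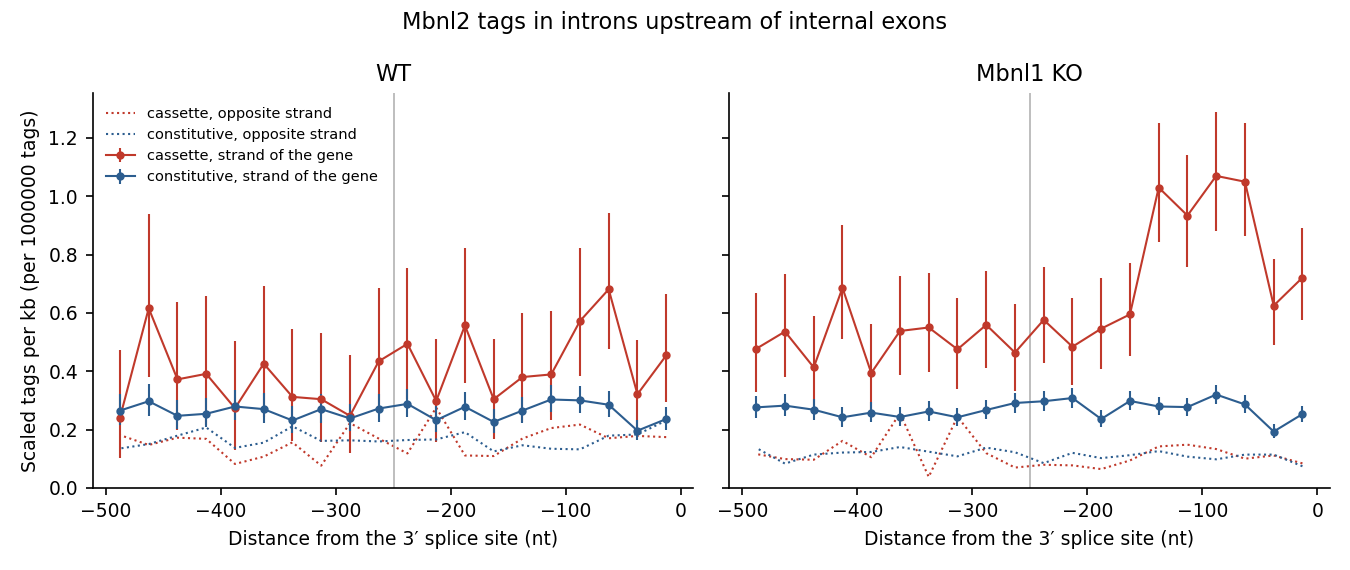
Mbnl2 tags per kb, scaled to 1000000 tags, are plotted in bins of 25 nt against the distance from the 3′ splice site (at 0, on the right) for WT and Mbnl1 KO, with 95% counting intervals, and the dotted lines give the opposite strand. The grey line marks the 250-nt limit of the windows. The Mbnl1 KO cassette profile is highest between 51 and 150 nt, and the constitutive profile is lower throughout that range in both panels.

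YGCY words were common in the tags of the upstream windows. These 4 words were searched on the sense strand only, and overlapping words were counted each. In WT, 45.4% of tags (43.0 to 47.8) held a YGCY word, and in Mbnl1 KO 55.1% (53.6 to 56.7). Stretches of the same lengths taken across all upstream windows held one in 21.2% and 23.4%, and stretches across the tagged windows in 24.6% and 28.4%. Tags on the opposite strand had a word in 23.2% and 33.6%. Cassette windows had the higher shares, 56.2% (49.3 to 62.8) in WT and 65.6% (62.1 to 68.9) in Mbnl1 KO. Constitutive windows had 43.6% (41.0 to 46.2) and 52.2% (50.4 to 54.0). Stretches across the tagged windows of the same class held a word in 32.3% and 32.4% for cassette and in 23.5% and 27.6% for constitutive exons. Relative to these, the share in tags was 1.74 times in WT and 2.03 times in Mbnl1 KO before cassette exons, and 1.86 and 1.89 times before constitutive exons, so in WT cassette tags did not stand above constitutive ones on this measure. Mbnl1 KO tags are the longer ones, and among tags of at least 25 nt the shares over all upstream windows were 59.0% (53.1 to 64.7) and 63.7% (61.4 to 66.0), with intervals that overlap. Deep introns had 40.8% and 50.2%, so YGCY in the tags was not limited to the windows.

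The words sat within the tags more than in the sequence beside them. Between 12 nt before and 7 nt after the midpoint of cassette tags, 40.2 words in WT and 49.2 in Mbnl1 KO began per 1000 positions. Farther out, at 51 to 75 nt on either side, there were 18.1 and 19.4. The central stretch thus had 2.22 and 2.54 times the words of the flanks, and for constitutive tags 2.47 and 2.42 times. Cassette tags had a median length of 22 nt in WT and 25 nt in Mbnl1 KO. The central stretch therefore covers most of a tag and does not place the words inside it. For opposite-strand tags it was 1.57 and 2.05 times the flanks. Among the 256 words of 4 letters, TGCT was enriched in tags over the windows 2.50-fold in WT and 2.55-fold in Mbnl1 KO before cassette exons, among the leading words in both. GCTT, which overlaps TGCT, was enriched 2.57-fold and 2.54-fold. CGCT was enriched 2.23-fold in WT, from 18 counts, and 2.58-fold in Mbnl1 KO, slightly above TGCT there. TGCC had 1.38-fold and 1.75-fold, while CGCC had 0.513 from 3 counts in WT and 1.45 in Mbnl1 KO. The 4 YGCY words were therefore not alike. AAAA led in WT tags before constitutive exons with 2.55-fold, below the single-base limit for whole tags.

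**Figure D4:**
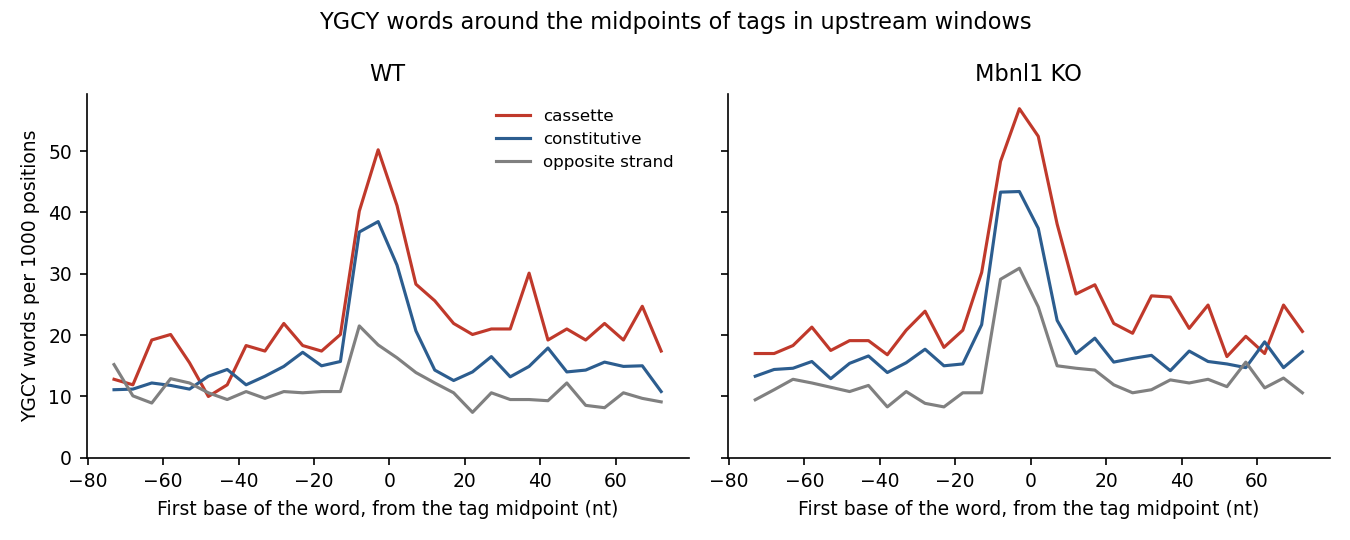
YGCY words that begin at each position (bins of 5 nt) per 1000 positions are plotted against the distance from the tag midpoint, with 0 at the midpoint, for tags in cassette and constitutive upstream windows and for opposite-strand tags. All curves rise at the midpoint, cassette tags highest, and opposite-strand tags rise least.

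Few single windows were deeply covered. At least 1 tag fell in 1514 windows in WT (0.966%) and in 2828 in Mbnl1 KO (1.80%), together 3938 windows in 3003 genes. Among cassette windows the shares were 1.46% (1.25 to 1.69) and 3.29% (2.99 to 3.63), and among constitutive windows 0.925% (0.875 to 0.977) and 1.67% (1.60 to 1.73). A tag in both genotypes was found in 404 windows, of which 86 were cassette. At least 5 tags over both tables were found at 96 windows, 35 of them cassette (36.5%). The minimum was set on the tags of both tables, of which Mbnl1 KO has more, so a window passes more easily through Mbnl1 KO. Of the 35 cassette windows, 11 had 0 WT tags and 0 had 0 Mbnl1 KO tags, and of the 53 constitutive ones 21 and 1. The ratios of the windows that passed are therefore given as descriptions. At least 10 tags were found at 14 windows, and 7 of these had a ratio of at least 2, beside 43.8% of the 242 upstream windows, downstream windows and internal exons with that many tags. The 7 of 14 are close to that background share. Of the ratios given for single windows here, the intervals exclude 1 only for Tnnt3 and Slc8a3, and at neither window under every setting.

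Sarcomere genes led the windows. Tnnt3, the fast skeletal troponin T that ties the troponin complex to tropomyosin, had the most tags. The window before its 39-nt cassette exon (exon 9 of 18, chr7:149693655-149693693) had 2 tags in WT and 18 in Mbnl1 KO, a ratio of 4.33 (1.04 to 38.5). The tags lay 20 to 192 nt from the splice site, 16 of the 20 held YGCY, and the opposite strand had 3 and 1. The Mbnl1 KO tags began at 10 different positions. Downstream of the same exon there were 1 and 8 tags. A second Tnnt3 cassette exon of 12 nt (exon 7) had 3 tags in WT and 9 in Mbnl1 KO before it, a ratio of 1.44 (0.360 to 8.28). The interval at the first exon excludes 1 as counted here, but the window was named for its many tags and its high ratio, and the exclusion depends on the processing. It was kept under 8 of 14 other settings and lost under 6. The lower bound was 0.960 when scaled to deep introns, and the ratio was 2.68 (0.571 to 25.1) when identical tags were merged and 1.46 (0.196 to 64.8) with tags of at least 25 nt. The interval at the second exon includes 1, and its ratio became 0.730 with tags of at least 25 nt.

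Ttn had tags at 51 of its 340 windows, 24 in WT and 138 in Mbnl1 KO, and 20 and 111 of these were before cassette exons. Its ratio was 2.76 (1.78 to 4.46), with 2 and 0 tags on the opposite strand. Before its 69-nt exon (exon 201 of 347) there were 3 WT and 13 Mbnl1 KO tags, before its 84-nt exon (exon 120) 3 and 9, and before its 78-nt exon (exon 149) 1 and 8. Each of these windows was higher in Mbnl1 KO on the scaled count, with intervals that include 1. With tags of at least 25 nt the direction turned at the 69-nt and 84-nt exons, to ratios of 0.912 and 0.547. Of the 138 Mbnl1 KO tags, 6 had an exact second copy inside the gene, which has repeated exons. Neb, nebulin of the thin filament, had 4 and 38 tags over 23 of its 157 windows, a ratio of 4.57 (1.64 to 17.6). Myom1, a myomesin of the M-band, had 3 and 12 tags before its 294-nt cassette exon (exon 18), a ratio of 1.92 (0.519 to 10.6) that became 0.912 with tags of at least 25 nt, and all 15 held YGCY.

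Calcium handling genes gave a constitutive and a cassette example. Atp2a1, the calcium pump of the sarcoplasmic reticulum in fast fibres, had 4 tags in WT and 11 in Mbnl1 KO before its constitutive 103-nt exon (exon 11 of 23), a ratio of 1.32 (0.392 to 5.69) that became 0.365 with tags of at least 25 nt and 0.623 with at least 2 reads. All 15 tags lay within 67 to 90 nt of the splice site and held YGCY. Ryr1, the calcium release channel, has no cassette window in the annotation used, although the study reports mis-splicing of Ryr1 in knockout muscle. It had 4 and 10 tags over 8 of its 103 windows. Slc8a3, a sodium-calcium exchanger, had 0 WT and 10 Mbnl1 KO tags before an 18-nt exon, at least 1.08-fold higher by the lower bound of the interval. That bound was above 1 under 7 of 13 other settings and ran from 0.286 to 2.24. A count of 0 in WT allows up to 15.9 of 1000000 tags. These 10 tags lie in the CTG repeat printed above, so their place in the genome is uncertain.

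Among cytoskeletal genes Plec, plectin, which links intermediate filaments to other structures, had 3 WT and 16 Mbnl1 KO tags before its 36-nt cassette exon (exon 5 of 34), a ratio of 2.56 (0.734 to 13.7). This ratio became 1.10 (0.244 to 10.1) with tags of at least 25 nt. All 19 tags held YGCY, 54 to 120 nt from the splice site. Dock9, an exchange factor for a small GTPase, had 1 and 9 tags before its 137-nt cassette exon, a ratio of 4.33 (0.600 to 190). Hook3, a microtubule adaptor, had 2 and 7 before its 88-nt cassette exon. Clip1, a protein of microtubule plus ends, had 2 and 18 tags over 4 windows, a ratio of 4.33 (1.04 to 38.5), with 17 of the 18 before cassette exons. The tags of Ank1 and Myo7a held no YGCY. Ank1, ankyrin, had 2 and 9 tags before a constitutive 155-nt exon, a ratio of 2.16 (0.448 to 20.6), all with midpoints 249 to 250 nt from the splice site at the edge of the window, beginning at 3 positions in Mbnl1 KO. Myo7a, an unconventional myosin, had 5 and 5 tags before a constitutive 136-nt exon, all 5 of Mbnl1 KO beginning at the same base, a ratio of 0.481 (0.111 to 2.09). Nudt13, a nudix hydrolase gene, had 1 and 11 tags before its 155-nt exon, but all 12 have a second exact copy inside the gene. Gm1661, a predicted gene, had 2 and 8 in a repeat of TGCC words with 3 exact copies in the genome.

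Of the muscleblind-like genes, Mbnl1 and Mbnl2 had tags in their own upstream introns, and Mbnl3 had 0 in its 5 windows. Mbnl2 had 0 WT and 8 Mbnl1 KO tags before its 95-nt cassette exon (exon 8 of 9), 92 to 148 nt from the splice site, all with YGCY, at a lower bound of 0.821. Before its 54-nt cassette exon there were 1 and 1. Mbnl1 had 3 and 3 tags before its own 95-nt cassette exon (exon 8 of 10), a ratio of 0.481 (0.0644 to 3.59), all 6 with YGCY. In all its windows Mbnl1 had 5 and 17 tags. Other targets that the study names had few. Clcn1, the muscle chloride channel, had 2 and 5 before its 79-nt cassette exon, all 7 within 32 to 198 nt, and 5 of the 7 held YGCY. Csda, a Y-box protein that binds DNA and RNA, had 1 and 6 before its 207-nt exon, most near the far edge of the window at a median of 248 nt. Over all their upstream windows Ldb3, of the Z-disc, had 0 WT and 6 Mbnl1 KO tags, Bin1, of the T-tubules, 0 and 4, and Cacna1s, the voltage sensor of the T-tubule, 1 and 2. At these numbers a difference between the tables was not detectable.

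**Figure D5:**
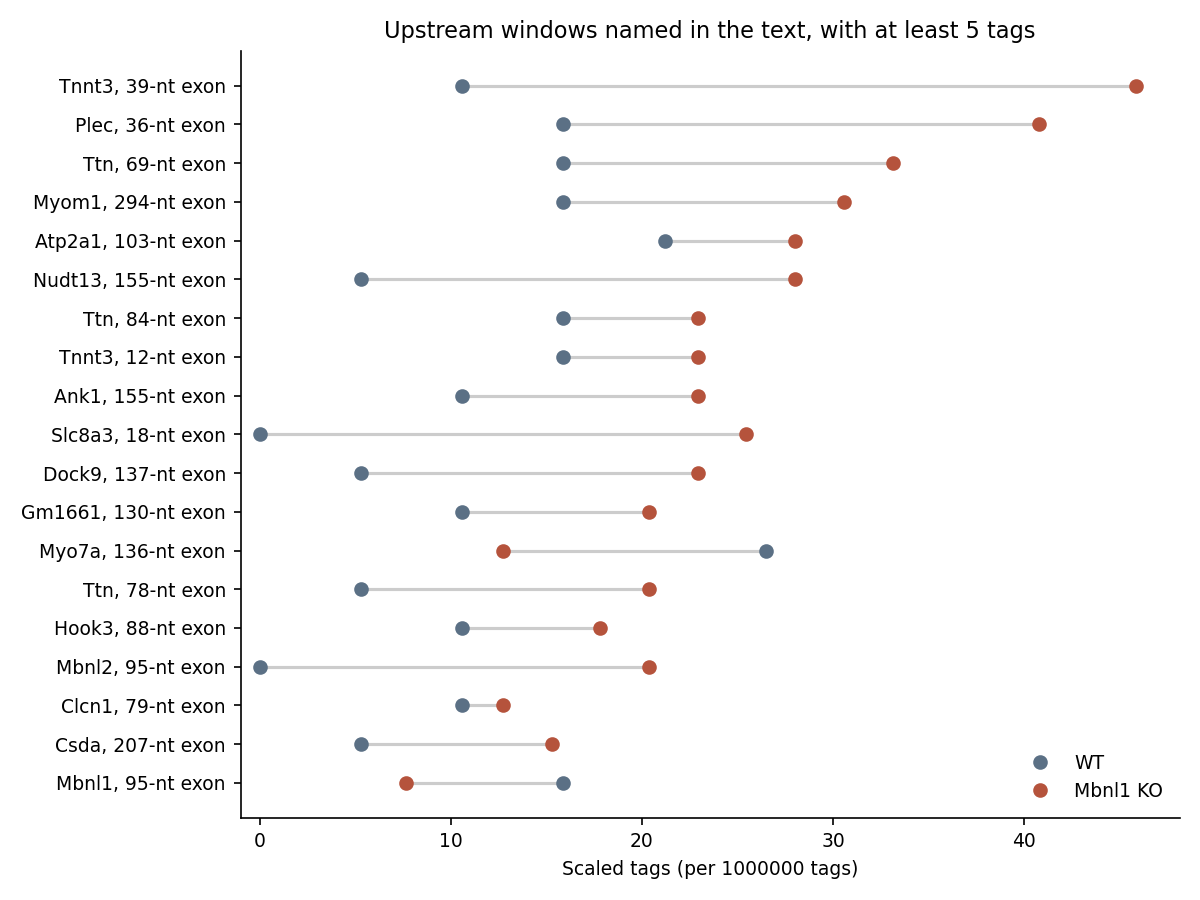
Points give Mbnl2 tags, scaled to 1000000 tags of the table, in WT and Mbnl1 KO for each named upstream window with at least 5 tags, labelled by gene and exon length, without error bars because most rest on fewer than 10 tags. The Mbnl1 KO point lies to the right for all but the Myo7a and Mbnl1 windows, which are at 0.481 times WT.

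Summed over windows, 33 genes had at least 10 tags. The Mbnl1 KO/WT ratio was at least 2 in 13 of them, 39.4%. The gene lists were as follows, each a group chosen for its function. Sarcomere and Z-disc genes, 24 of 36 with a tag, had 68 tags in WT and 326 in Mbnl1 KO, a ratio of 2.31 (1.77 to 3.04), and 4 of 6 genes with at least 10 tags had a ratio of at least 2. Splicing targets that the study names, 18 of 24 with a tag, had 60 and 272, a ratio of 2.18 (1.64 to 2.93), and 4 of 8 such genes. The study chose this list, and Ttn, Tnnt3 and Ldb3 are in both lists. Calcium handling genes had 17 and 79, a ratio of 2.23 (1.31 to 4.03), and 1 of 3. Of these, Ank1, Atp2a1, Bin1, Cacna1s, Clcn1 and Ryr1 are also targets that the study names, and Trdn is also in the sarcomere list. The ratios of these lists are therefore not separate. Genes of the membrane complex and cytoskeleton had 23 and 74, a ratio of 1.55 (0.958 to 2.59), and 2 of 5. RNA splicing regulators had 17 and 60, a ratio of 1.70 (0.977 to 3.10), and 0 of 2, with 21 of 41 genes without a tag, among them Mbnl3, Ptbp1 and Srsf1. Metabolism and signalling genes had 15 and 40, a ratio of 1.28 (0.693 to 2.50), and no gene with at least 10 tags. All genes together had a ratio of 1.15. The density in Mbnl1 KO was 1.51 tags per kb for the sarcomere list and 0.915 for the splicing regulators, beside 0.124 for all genes. In the calcium list the opposite strand had 5 and 11 tags, in the splicing regulator list 0 and 0.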

How the data were processed

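Mbnl2 HITS-CLIP tags were analysed from quadriceps of 3 WT and 3 Mbnl1 KO mice, 1 merged table each. The authors filtered the reads, aligned them with BWA (version not given in the sources used here) to mm9, dropped sequences that were too short, took out likely PCR duplicates and pooled the mice. Each row of the deposited table is a unique tag with its position and, without normalization, the count of reads collapsed into it. High and low RNase are not told apart. The tables hold 343554 and 476543 tags, a depth that leaves most windows with 0 tags.

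Tags of at least 70% a single base were left out. Tags were assigned by midpoint and strand and scaled to the tags left on assembled chromosomes (a raw ratio times 0.481), with Python 3.11.15, numpy 2.4.6, pandas 2.3.3, scipy 1.17.1 and pysam 0.24.0. Ratios have exact Clopper-Pearson intervals, within-gene ratios Mantel-Haenszel ones. A ratio of at least 2 at 10 or more tags was counted. The windows named were the 10 with the most tags, the 5 highest and the 5 lowest by ratio of those with at least 10 tags, the 10 cassette windows with the most tags and, of each target the study names, the cassette window with the most tags. Some of these are not reported here. Neb, Clip1 and the Mbnl2 54-nt exon were named after their values were seen. The members and lists were chosen with earlier results of these data known. Assignment and intervals were tested on simulated data. Alternatives covered scaling, tag filters, window length and exon classes. Opposite-strand subtraction, tags of at least 25 nt and the quotient of class ratios were chosen after seeing the data, as were the zones at 101 to 150 and 151 to 250 nt.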

Additional observations from a re-analysis of the deposited data

How the results depend on the processing

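With few tags per window, counts of windows and genes past a ratio of 2 moved by over 1.5 times under 12 and 13 of 17 settings. The ratios over window classes kept their direction, except for the Mbnl1 KO/WT ratio at constitutive windows, whose reported interval includes 1. That interval lay above 1 with raw tags (2.05 to 2.33), scaled to all tags (1.46 to 1.66) and with single-base tags kept (1.23 to 1.38). It also did so with Mbnl1 KO reads thinned to the WT number (1.14 to 1.33) and with any overlap (1.05 to 1.18). Under the other settings with an interval it included 1. No paired analysis was possible because the 3 mice of a genotype are merged in 1 table, and for the same reason no mouse could be left out. Leaving out repeats was not run, since the reference holds no repeat masking. Of 234 alternative values, 137 stayed within the error of the reported value and 97 moved. The intervals at single windows are so wide that few values could leave them (2 of 169 did), which shows nothing about their stability, and no ratio was formed where WT had 0 tags. The causes of these changes were not tested, except where fewer tags or windows follow from the setting itself. Among the windows with at least 10 tags, the ratio before the Tnnt3 39-nt exon was 1.46 to 9, before the Plec exon 1.10 to 5.33 and before the Myo7a exon 0.179 to 1.

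The Mbnl1 KO/WT ratio over all upstream, cassette and constitutive windows was 2.39, 3.59 and 2.19 with raw tags, 1.70, 2.56 and 1.56 when scaled to all tags, and 1.42, 2.10 and 1.30 with single-base tags kept. It was 1.40, 2.41 and 1.23 with Mbnl1 KO reads thinned to the WT number, and 1.95, 2.44 and 1.80 with opposite-strand tags subtracted. Scaled to deep introns, it was 1.06 over all and 0.973 over constitutive windows. Over cassette windows it was 1.43 with tags of at least 2 reads and 1.25 with tags of at least 25 nt. The cassette over the constitutive ratio was 1.96 with thinned reads, 1.36 with opposite-strand tags subtracted and 1.22 with tags of at least 25 nt.

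The cassette/constitutive ratio, pooled and within genes, was 2.40 and 2.24 in WT and 3.37 and 2.90 in Mbnl1 KO with at least 2 reads, 1.99 and 2.03 in WT and 3.28 and 2.84 in Mbnl1 KO with windows of 100 nt, and 3.26 and 2.45 in WT and 3.96 and 3.25 in Mbnl1 KO with tags of at least 25 nt. In Mbnl1 KO it was 3.37 and 2.84 with thinned reads, 2.45 and 2.12 with windows of 500 nt, 2.40 and 2.20 with classes from all transcripts and 2.47 and 2.18 without the 20 most tagged windows. Pooled, it was 2.47 without Ttn, and 2.93 in WT and 3.97 in Mbnl1 KO with opposite-strand tags subtracted.

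The upstream/downstream ratio moved in WT to 0.798 with at least 2 reads, 0.928 with single-base tags kept, 0.732 with tags of at least 25 nt and 0.923 with windows of 500 nt. In Mbnl1 KO it moved to 0.813 with thinned reads, 0.902 with any overlap, 0.793 with tags of at least 25 nt and 0.783 with windows of 100 nt. The sense/antisense ratio moved in WT to 2.91 with at least 2 reads, 1.16 with single-base tags kept, 3.97 with tags of at least 25 nt and 1.51 with windows of 100 nt. In Mbnl1 KO it moved to 5.05 with thinned reads, 5.40 with at least 2 reads, 2.63 when identical tags were merged, 2.60 when those sharing a 5′ end were merged, 2.43 with single-base tags kept, 8.97 with tags of at least 25 nt and 2.69 with windows of 500 nt. The share of tags with YGCY moved in WT to 54.9% with at least 2 reads, 34.9% with single-base tags kept, 59.0% with tags of at least 25 nt and 49.5% with windows of 100 nt. In Mbnl1 KO it moved to 58.6% with thinned reads, 58.5% with at least 2 reads, 50.4% with single-base tags kept and 63.7% with tags of at least 25 nt.

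The 7 windows with a ratio of at least 2 became 0 without the 20 most tagged windows and with tags of at least 25 nt, 1 with at least 2 reads or at least 20 tags, and 2 when identical tags or those sharing a 5′ end were merged and with windows of 100 nt. They became 13 with raw tags, 11 scaled to all tags, 14 with single-base tags kept, 16 with windows of 500 nt and 53 at 5 tags. The 13 genes became 7 without the 20 most tagged windows, with at least 2 reads and with windows of 100 nt, 6 when identical tags were merged or only tags of at least 25 nt were kept, 4 when those sharing a 5′ end were merged and 5 at 20 tags. They became 20 with any overlap, 22 scaled to all tags, 24 with single-base tags kept, 28 with raw tags, 33 with windows of 500 nt and 80 at 5 tags.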

Other observations

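Exon length, reading frame and the other side of the exon also went with the number of tags in the upstream window. These are descriptions of windows that the tags themselves pick out, with no test. Before cassette exons shorter than 50 nt, 87 of 1924 windows had a tag in Mbnl1 KO, 4.52% (3.64 to 5.55), and 27 in WT, 1.40% (0.927 to 2.04). The shares were 3.36% and 1.81% for cassette exons of 50 to 99 nt, 2.57% (2.15 to 3.04) and 1.10% (0.831 to 1.42) for those of 100 to 199 nt, and 4.08% (3.09 to 5.26) and 1.89% for those of 200 nt or more. On the scale of tags per kb per 1000000 tags, the short cassette exons stood at 1.30 in Mbnl1 KO and 0.476 in WT, and their opposite strand held 20 and 18 tags. The longer classes had 0.857, 0.456 and 0.988 in Mbnl1 KO and 0.590, 0.300 and 0.559 in WT, so there was no steady trend with length, and in WT the short exons were not the highest. Constitutive exons shorter than 50 nt had 0.261 in Mbnl1 KO, within the 0.256 to 0.281 of longer ones, and 0.320 in WT, above their 0.251 to 0.273. Gaps of 10000 nt or more to the next exon had the fewest tags before cassette exons, 0.279 in Mbnl1 KO and 0.181 in WT, from 32 and 10 tags.

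Cassette exons whose length is a multiple of 3, which keep the reading frame whether included or skipped, had 0.973 scaled tags per kb before them in Mbnl1 KO and 0.596 in WT. Other cassette exons had 0.524 and 0.263. The tagged cassette exons of Ttn are multiples of 3, with 111 of the 547 Mbnl1 KO and 20 of the 161 WT tags. The comparison was not repeated without Ttn. Before constitutive exons the values were 0.276 against 0.271 and 0.269 against 0.253, so the frame made little difference there. Windows of full length with at least 5 tags held a mean of 6.60 YGCY words before cassette exons, from 25 windows, against 3.15 in those without a tag, and 5.33 against 3.02 before constitutive exons. Tags on both sides of the same exon were more frequent at cassette exons. Of 378 cassette exons with an upstream tag in Mbnl1 KO, 63 (16.7%, 13.1 to 20.8) also had a downstream tag, against 3.38% (3.05 to 3.74) of those without. In WT these shares were 6.02% (2.93 to 10.8) and 1.85% (1.61 to 2.12). At constitutive exons they were 2.77% (2.12 to 3.55) and 1.80% (1.73 to 1.88) in Mbnl1 KO and 1.01% in both sets in WT. Both sides of an exon share the transcript level of their gene, and its part in these shares was not tested.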
